A study of Mus musculus with 15 samples.

Results

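The cortical layer identity transcription factors are 9 genes whose proteins bind DNA and mark neurons of different depths in the cerebral cortex. They were taken by name out of the 53337 genes to which transcript values could be summed. Cux1, Cux2, Pou3f2, Pou3f3 and Rorb were read as the 5 upper-layer factors, and Tbr1, Fezf2, Bcl11b and Sox5 as the 4 deep-layer factors. The libraries were made from the dorsal forebrain of C57BL/6J mouse embryos on embryonic day 18 (E18), whose dams had been infused with arginine vasopressin (AVP) or with saline, which the labels call vehicle, in a model of preeclampsia. AVP was represented by 4 males and 3 females, and saline by 4 of each sex. Each library came from a different brain and, within a sex, from a different litter per the study's methods, and the authors left out 1 further AVP female. No group carried a mutation or a transgene. Libraries are named here by treatment, sex and the number in their label, as in AVP male 9.

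Projection neurons of the cortex are born in sequence from radial glia, directly or through intermediate progenitors, and earlier-born neurons settle deep while later-born neurons migrate past them to the upper layers. Deep-layer neurons project out of the cortex to the thalamus, brainstem and spinal cord, and many upper-layer neurons project within it. Cross-repression among factors that include Fezf2, Tbr1, Bcl11b (also called Ctip2) and Sox5 sorts these identities, and the Cux, POU and Rorb factors act on the upper side. Shortly before birth the upper-layer neurons are still arriving, so layer identity is being set rather than complete. In bulk tissue, fewer cells of a type and less RNA per cell cannot be told apart.

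Levels are in TPM, a length-corrected share of a library's transcripts scaled to a total of 1000000, and differences are on the log2(TPM + 0.5) scale. Because TPM hold no read counts, the depth of single libraries could not be recovered and no counting interval is given. The tissue label was checked against marker genes. Neurod6, of cortical projection neurons, lay between 471 and 728 TPM in the 15 libraries and Neurod2 between 154 and 232 TPM, while the 7 thalamic markers summed to 152 to 241 TPM, of which Lhx2, a cortical gene too, held 98.3 to 166.5 TPM, Prkcd 18.8 to 37.7 TPM and Gbx2 at most 0.276 TPM. The choroid plexus gene Ttr ran from 1.53 to 2197 TPM, so the dissections differed in what they held. The library labelled saline male 12 did not match its sex: Xist stood at 265.8 TPM, inside the female range of 174 to 294 TPM (7 libraries) and far above the 0.121 to 1.13 TPM of the other 7 males, and its 4 Y-linked transcripts summed to 0.489 TPM against 102 to 155 TPM in the other males. Values without it stand beside the male results of Cux2, Sox5, Fezf2 and Rorb, the Rorb interaction, the Cux2 sex difference and the layer balance in males. Without it 7 genes passed the adjusted threshold between the sexes, where 0 did with it (limma).

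The finding on transcripts below turns on whether a transcript encodes the part of the protein that binds DNA, so that part is shown first. Cux1, Cux2, Pou3f2 and Pou3f3 are homeodomain proteins, and the third helix of the homeodomain lies in the major groove of DNA. The following stretches of 66 bases, read 5′ to 3′ on the coding strand from the GENCODE transcripts (GRCm38), end that domain. Capitals mark the 18 bases of the helix's signature.

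Cux1: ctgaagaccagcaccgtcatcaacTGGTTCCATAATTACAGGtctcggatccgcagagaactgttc

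Cux2: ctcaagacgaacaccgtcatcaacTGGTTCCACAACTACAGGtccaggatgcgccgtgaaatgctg

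Pou3f2: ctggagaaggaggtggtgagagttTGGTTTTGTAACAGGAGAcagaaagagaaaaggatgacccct

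Pou3f3: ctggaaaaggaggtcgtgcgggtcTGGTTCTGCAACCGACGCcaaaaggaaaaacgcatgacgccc

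The Cux1 stretch spans the junction of exons 23 and 24 of Cux1-201 (chr5:136275442-136279470, minus strand), and the Cux2 stretch that of exons 22 and 23 of Cux2-202 (chr5:121861357-121864687, minus strand). Those of Pou3f2 (chr4:22486884-22486949, minus strand) and Pou3f3 (chr1:42698469-42698534, plus strand) lie in the single exon of each gene. Cux1 and Cux2 had 53 of 66 bases in common (80.3%), and Pou3f2 and Pou3f3 had 48 (72.7%). The transcripts of each of these pairs shared no run of 31 bases, the word length by which kallisto assigns reads. The most abundant Cux1 transcript, Cux1-211, lacks this domain altogether. Its coding sequence ends instead in exon 23 of 23 at chr5:136248911-136248976 on the minus strand, with the stop codon in capitals.

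Cux1-211: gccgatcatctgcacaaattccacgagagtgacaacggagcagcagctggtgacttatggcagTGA

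As gene totals, the members fell into 2 ranges of level (Tbr1 to Bcl11b, and Rorb). Tbr1, a T-box factor of layer 6 and the preplate, stood highest at 99.8 ± 8.72 TPM (SD, n = 15 libraries), with a range of 86.0 to 119 TPM. Cux1 followed at 87.3 ± 10.2 TPM, Pou3f3 at 80.8 ± 5.78 TPM and Cux2 at 65.9 ± 10.4 TPM. Fezf2, a zinc finger factor that directs the corticospinal fate, stood at 59.2 ± 13.1 TPM, and Sox5, an HMG box factor that times the exit of deep-layer neurons, at 49.4 ± 7.27 TPM. Pou3f2 stood at 41.6 ± 6.15 TPM and Bcl11b, a zinc finger factor acting downstream of Fezf2, at 38.0 ± 6.67 TPM. Rorb, a nuclear receptor of layer 4, was the lowest at 5.04 ± 1.53 TPM, and Bcl11b exceeded it by 3.88 to 17.7 times in the individual libraries.

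Neighbours in this order were close. The ranges over libraries of every adjacent pair overlapped, except for Bcl11b and Rorb. Within a library, Pou3f3 exceeded Cux2 in 15 of 15 libraries, Tbr1 exceeded Cux1 in 14 and Sox5 exceeded Pou3f2 in 14, while Pou3f2 exceeded Bcl11b in 9 and Cux2 exceeded Fezf2 in 10. The upper- and deep-layer factors were thus interleaved, with no gap between the sets. The members also differed in how steady they were. Pou3f3 had a within-group SD of 0.105 on the log2 scale, with 8.4% of the genes tested below it, Fezf2 an SD of 0.330 and Rorb an SD of 0.394, beside a median of 0.212 over all genes.

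**Figure D1:**
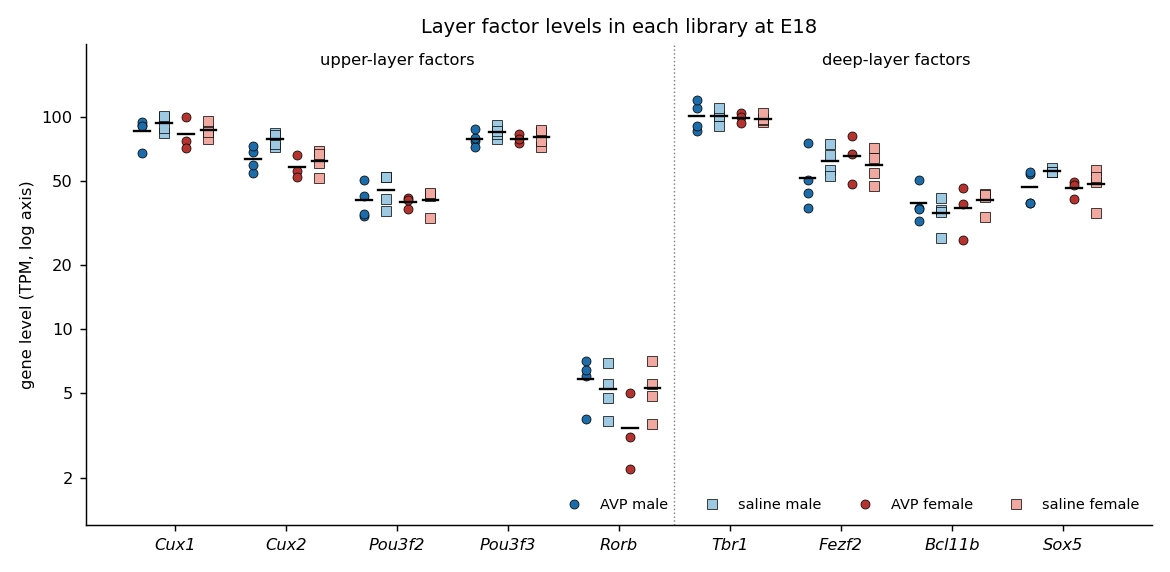
Gene level of each layer factor (TPM, log axis) in the 15 libraries, with circles for AVP, squares for saline, blue for males, red for females and a bar at each group's mean. Rorb lies between 2.20 and 7.11 TPM, below the other 8 factors, and saline male libraries of Sox5 sit close together at 55.0 to 57.1 TPM.

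The order changed when only transcripts whose annotated translation holds the DNA-binding signature were counted, a choice made after seeing the data. Of the 87.3 TPM of Cux1, 6.02 TPM (4.04 to 7.84 TPM over libraries) lay on the 5 transcripts that encode the homeodomain, which is 6.85% of the gene's TPM (5.31 to 8.19%). Cux1 thereby went from the second place of 9 to the eighth. Cux1-211, 2831 bases long with a translation of 676 residues, held 58.6% of the gene's TPM, and Cux1-207, with 678 residues, held 20.1%. The Cux1 locus is known to encode, besides the homeodomain factor, CASP, a Golgi membrane protein that shares its start and has none of its DNA-binding domains. A further 8.86% lay on Cux1-208, whose annotated translation is incomplete, so that its lack of the signature says little. The homeodomain transcripts are long, up to 12862 bases, and weighting each TPM by transcript length gave them 23.7% (19.3 to 27.7%).

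Cux2 was divided in another way. Cux2-211, a retained-intron transcript of 1560 bases with no annotated translation, held 37.2% of its TPM, Cux2-202 held 26.1% and Cux2-210 held 15.6%. Transcripts with a homeodomain translation summed to 30.5 TPM, or 46.5% of the gene (38.9 to 55.9%), and to 82.7% by length-weighted TPM. The homeodomain stretch printed above was itself present in Cux2 transcripts holding 83.6% of the TPM, because Cux2-211 contains it untranslated, whereas the Cux1 stretch was present in transcripts holding 6.9%.

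The other members kept more. Tbr1-201, with the T-box, held 81.1% of Tbr1, and most of the rest lay on Tbr1-203, a processed transcript of 796 bases. Sox5 transcripts with the HMG box held 74.0% of Sox5, most of it on Sox5-201 (24.7 TPM) and Sox5-214 (17.7%), and Sox5-208, a processed transcript of 351 bases, held 23.8%. By length-weighted TPM, transcripts with the DNA-binding signature held 95.4% of Tbr1 and 97.2% of Sox5. Rorb-201 (60.8%) and Rorb-203 (38.5%) both encode the receptor's zinc fingers. Fezf2-201 (73.4%) and Fezf2-203 (18.9%) encode 6 zinc finger signatures each, as do Bcl11b-201 (83.9%) and Bcl11b-203 (15.9%). Pou3f2 and Pou3f3 have 1 transcript each. Kallisto divides reads among transcripts that share exons, so all of these are estimates. Exons of Cux1 overlapped the antisense gene Gm16599 over 394 of 20024 bases and those of Sox5 overlapped Sox5os1 over 1330 of 14376, both on the opposite strand, and the reads were quantified by strand.

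**Figure D2:**
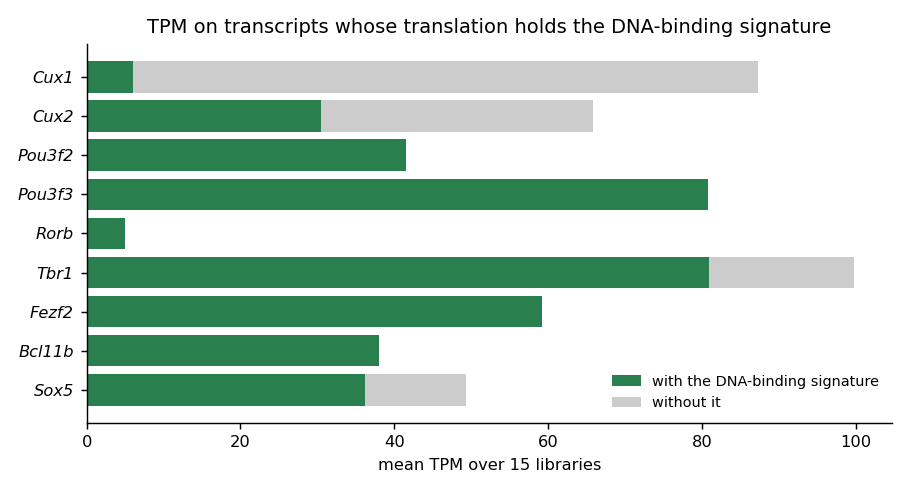
Mean TPM over 15 libraries on transcripts whose translation holds the gene's DNA-binding signature (green) and on the other transcripts (grey), for each layer factor. Cux1 has 6.02 TPM in green and 81.3 TPM in grey, Cux2 has 30.5 and 35.4 TPM, and Pou3f2, Pou3f3, Fezf2 and Bcl11b have no grey.

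In males, the comparison of AVP with saline asked whether maternal AVP altered the layer factors, and none of the 9 passed an adjusted p of 0.05 (limma, Benjamini-Hochberg over 15271 genes, of which 0.00655% passed). The only gene past it was Mir6392, which is no member and was named after its values were seen. Cux2 and Sox5 were the members with the lowest p. Mean log2 levels were lower in AVP males for 7 members, though not for Pou3f3 (0.01) or Tbr1 (0.11) with median-of-ratios scaling between libraries, and higher for Rorb and Bcl11b. For Tbr1 the log2 difference was only -0.00040, and its mean TPM was higher with AVP (101.3 against 100.6 TPM). The median log2 fold change of the members was -0.12, beside -0.10 over all genes tested, and 5 of 9 members lay below the latter. That median was 0.0033 with median-of-ratios scaling. Of the genes under an unadjusted p of 0.05, 169 were higher and 1888 lower with AVP, but 1002 were higher and 761 lower after that scaling.

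Cux2, a homeodomain factor of upper-layer neurons and their progenitors, was at 54.2, 59.3, 68.1 and 72.7 TPM in AVP males and at 84.2, 72.4, 74.5 and 82.0 TPM in saline males. All but the highest AVP male lay under every saline male in unscaled TPM. With median-of-ratios scaling AVP male 8 (70.2 scaled TPM) also stood above saline males 5 (69.0) and 12 (68.2). The log2 fold change was -0.30 ± 0.10 (SE), a level 0.810-fold that of saline (95% interval 0.690 to 0.949), with an adjusted p of 0.310 in limma and an exact two-sided permutation p of 0.0571. Cux2 was the only member of 9 under an unadjusted p of 0.05, a mark that 13.5% of all genes passed. Relative to the median of all genes its difference was -0.20. With median-of-ratios scaling the log2 fold change was -0.19 (limma adjusted p = 0.468), no longer under an unadjusted p of 0.05 (exact permutation p = 0.171). Quantile normalization gave -0.20, still under that mark (limma unadjusted p = 0.0334, adjusted p = 0.477). Without saline male 12 the log2 fold change was -0.33 (limma adjusted p = 0.612). Within the runs of library numbers, which the labels do not explain, the difference was -0.46 in the first run and -0.15 in the second.

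Sox5 was at 39.4, 53.6, 39.1 and 55.0 TPM in AVP males and at 55.2, 57.1, 55.2 and 55.0 TPM in saline males. Every AVP male lay below every saline male, although the highest of the former and the lowest of the latter both round to 55.0 TPM. The exact two-sided permutation test on log2 levels gave p = 0.0286, the smallest it can give with 4 libraries against 4. The separation depended on the scaling. With median-of-ratios scaling, chosen for this test after seeing the data, the groups overlapped, at 44.2, 53.7, 40.3 and 54.2 against 52.8, 54.5, 50.6 and 55.03 scaled TPM (exact permutation p = 0.286). The log2 fold change was -0.27 ± 0.12 (limma adjusted p = 0.377), and it was -0.27 without saline male 12, -0.16 with median-of-ratios scaling and -0.14 with quantile normalization. Sox5 was the only member of 9 whose male groups did not overlap, as was true of 7.27% of all genes tested. On transcripts with the HMG box alone, Sox5 stood at 29.6, 37.6, 32.3 and 40.9 TPM in AVP males and 39.5, 36.0, 38.9 and 40.3 TPM in saline males, and those groups overlapped (log2 fold change -0.15 ± 0.11, limma adjusted p = 0.537). Sox5-208, the short processed transcript, was at 8.51, 14.2, 5.62 and 12.9 TPM against 14.2, 19.6, 14.6 and 12.997 TPM.

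Fezf2 was at 50.6, 37.1, 43.6 and 74.9 TPM in AVP males and at 55.9, 65.7, 74.4 and 52.5 TPM in saline males. AVP male 9 was the highest of the 8, and the other 3 AVP males lay below every saline male in unscaled TPM. With median-of-ratios scaling AVP male 1 (56.8 scaled TPM) lay above saline males 4 (53.4) and 13 (52.5). The log2 fold change was -0.30 ± 0.21 (limma adjusted p = 0.522), or -0.50 without AVP male 9 (adjusted p = 0.154), -0.16 without AVP male 2 and -0.21 without saline male 12. It was -0.19 with median-of-ratios scaling. AVP male 9 also had the highest sum of the 5 intermediate progenitor markers among males, at 165 TPM beside 85.1 to 96.0 TPM in the other AVP males and 94.0 to 135 TPM in saline males, and the part of those cells in the value was not tested. The other members overlapped throughout. Cux1 differed by -0.12 ± 0.12, Pou3f2 by -0.16 ± 0.16, Pou3f3 by -0.10 ± 0.08 and Tbr1 by -0.00040 ± 0.11, while Rorb (0.15 ± 0.22) and Bcl11b (0.16 ± 0.16) had higher means with AVP. With median-of-ratios scaling Cux1 differed by -0.0067, Pou3f2 by -0.052, Rorb by 0.25 and Bcl11b by 0.27. Without AVP male 1 Cux1 differed by -0.010 and Rorb by 0.32, and Rorb differed by 0.010 without saline male 12, by 0.28 without saline male 13 and by 0.049 without AVP male 8. Bcl11b differed by 0.031 without AVP male 8, 0.033 without saline male 13 and 0.24 without either AVP male 1 or saline male 4. Pou3f2 differed by -0.27 without AVP male 9 or saline male 5, and by -0.09 when AVP male 1 or either of saline males 4 and 13 was left out. In unscaled TPM the 95% intervals ran from 0.838- to 1.19-fold of saline for Tbr1 and from 0.826- to 1.05-fold for Pou3f3. On the log2 scale these are -0.25 to 0.25 and -0.28 to 0.073. After median-of-ratios scaling they reached higher, at -0.12 to 0.35 for Tbr1 and -0.17 to 0.20 for Pou3f3.

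**Figure D3:**
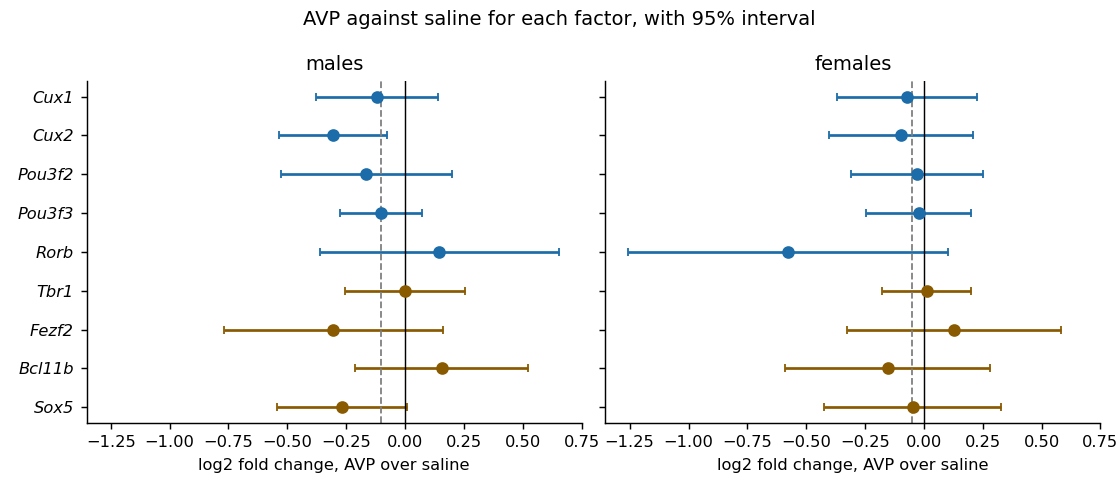
Log2 fold change of AVP over saline with its 95% interval from limma for each layer factor, in males (left) and females (right), with upper-layer factors in blue, deep-layer factors in brown and a dashed line at the median of all genes tested. In males Cux2 alone has an interval below 0 before adjustment, and in females every interval crosses 0.

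In females, none of the 9 members passed the adjusted threshold (limma, 15132 genes tested, 0% passed), and none had an unadjusted p under 0.05, as 4.51% of genes did. No member separated the groups, where 5.55% of all genes did. Means were again lower with AVP for 7 members, though not for Pou3f3 with median-of-ratios scaling (0.0083) nor for Pou3f2, Pou3f3 and Sox5 with quantile normalization (0.029, 0.045 and 0.015). The median was -0.05 for the members and -0.05 for all genes. Rorb had the largest difference. It was at 5.01, 2.20 and 3.10 TPM in AVP females 3, 10 and 11 and at 4.86, 3.57, 5.53 and 7.11 TPM in saline females. In unscaled TPM, AVP females 10 and 11 lay below every saline female and AVP female 3 lay among them. With median-of-ratios scaling AVP female 11, at 3.508 scaled TPM, lay just above saline female 7, at 3.496. The log2 fold change was -0.58 ± 0.30, or 0.670-fold (95% interval 0.418 to 1.07), with an adjusted p of 0.999 in limma and an exact permutation p of 0.171. It was -0.55 with median-of-ratios scaling (exact permutation p = 0.229), -0.34 without AVP female 10 and -0.85 without AVP female 3. The single AVP female of the first run of library numbers stood above the mean of its 2 saline females (log2 difference 0.24), and the 2 of the second run stood below theirs (-1.12).

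AVP females 10 and 11 also differed in other tissue markers, whose part in the Rorb values was not tested. AVP female 10 had the highest sum of the 9 radial glia markers of the 15 libraries, at 3174 TPM beside 2071 and 2103 TPM in the other AVP females and 2303 to 2698 TPM in saline females. AVP female 11 had the lowest sum of the 5 general neuronal markers, at 3108 TPM, against 4009 to 4402 TPM in saline females. Both rankings are of unscaled TPM. Median-of-ratios scaling, with factors of 1.147 for AVP female 10, 0.8824 for AVP female 11 and 0.891 for AVP male 1, changes them. AVP female 10 then has the lowest neuronal sum and AVP male 1 the highest radial glia sum. The 7 meningeal fibroblast markers (173 to 246 against 109 to 127 TPM) and the 5 endothelial markers (146 to 149.7 against 80.7 to 131 TPM) were higher in all 3 AVP females than in any saline female in unscaled TPM. After the same scaling the endothelial sum of AVP female 10 falls below that of saline female 6 (factor 1.022), while the meningeal sums stay apart. The choroid plexus markers summed to 2277, 27.4 and 1386 TPM in AVP females 3, 10 and 11 and 8.30 to 958 TPM in saline females. Of the other members, Fezf2 was at 48.1, 81.2 and 67.1 TPM with AVP and 47.4 to 71.6 TPM with saline (log2 fold change 0.13 ± 0.20). Bcl11b was at 46.2, 38.8 and 26.4 TPM against 33.7 to 43.4 TPM (-0.15 ± 0.19). Cux2 (-0.10 ± 0.13), Cux1 (-0.07 ± 0.13), Sox5 (-0.05 ± 0.16), Pou3f2 (-0.03 ± 0.12), Pou3f3 (-0.02 ± 0.10) and Tbr1 (0.01 ± 0.08) were closer to 0.

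The difference of the AVP effect between the sexes was tested as an interaction over all 15 libraries. No member passed (limma, 15078 genes, 0% passed), and no member had an unadjusted p under 0.05, as 4.14% of genes did. Rorb had the largest term at -0.72 ± 0.38 (adjusted p = 0.896), lower in females than in males, followed by Fezf2 at 0.43 ± 0.31 and Bcl11b at -0.31 ± 0.26. Leaving out 1 library gave 0.26 (without AVP female 10) to 0.63 (without AVP female 3) for Fezf2, and -0.48 (without AVP female 3) to -0.085 (without AVP female 11) for Bcl11b. Without saline male 12, the Rorb term was -0.59, and leaving out AVP female 10 made it -0.48. Sex, tested with treatment as a covariate, gave no member past the threshold either (0% of 15078 genes passed). Cux2 was the 1 member of 9 under an unadjusted p of 0.05, where 1.39% of genes were. It ranged from 51.3 to 68.8 TPM in females and from 54.2 to 84.2 TPM in males (female minus male -0.25 ± 0.09, limma adjusted p = 1). The value was -0.25 without saline male 12 as well, and -0.30 on homeodomain transcripts. By the study's methods a litter gave brains of both sexes, so males and females of a treatment shared litters. The labels do not say which, and neither fit takes it into account.

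The balance of the sets was described as the mean log2 level of the upper-layer factors minus that of the deep-layer factors in each library. It was -0.54, -0.39, -0.34 and -0.52 in the AVP males and -0.34, -0.61, -0.66 and -0.16 in the saline males. The means were -0.45 ± 0.10 (SD, n = 4) and -0.44 ± 0.24 (n = 4), a difference of -0.0046, which was -0.077 without saline male 12 and 0.091 without saline male 13. In females it was -0.53, -0.93 and -0.61 with AVP and -0.55, -0.67, -0.65 and -0.31 with saline. Those means were -0.69 ± 0.21 (n = 3) and -0.55 ± 0.17 (n = 4), a difference of -0.14. This difference was within the SD of either group and rested on AVP female 10, without which it was -0.025, and on Rorb, without which it was -0.039. It was -0.22 without AVP female 3 and -0.065 without saline female 15. The groups overlapped in both sexes. Counting homeodomain and other DNA-binding transcripts alone lowered the balance to between -1.75 and -0.91 over the libraries, through Cux1 and Cux2, and left the difference at -0.062 in males and -0.17 in females.

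**Figure D4:**
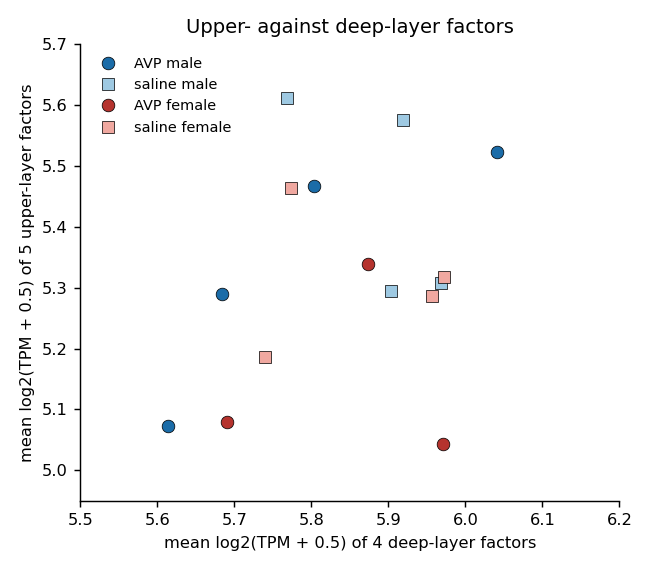
Mean log2(TPM + 0.5) of the 5 upper-layer factors against that of the 4 deep-layer factors, 1 point per library, with circles for AVP and squares for saline. The 4 groups overlap, and AVP female 10 stands lowest on the upper axis at 5.04 with a deep value of 5.97.

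The use of transcripts was compared by the share of a member's most abundant transcript, in 14 tests over 7 members and both sexes. No share differed after adjustment over these tests (lowest adjusted p = 0.8), but with these group sizes a single separated share could reach no less than 0.4. Fezf2-201 in males had the lowest p. It held 78.1 ± 4.25% of Fezf2 in AVP males (n = 4) and 70.7 ± 3.21% in saline males (n = 4), a difference of 7.38 percentage points (exact two-sided permutation p = 0.0571). Without saline male 12 the difference was 7.02 percentage points (exact permutation p = 0.114). Rorb-201 in females had the widest difference, with 51.0 ± 24.1% in AVP (n = 3) and 69.3 ± 15.2% in saline (n = 4), and an exact permutation p of 0.257, from a gene of few TPM. The share of Cux1 TPM on homeodomain transcripts, tested after seeing the data in a further family of 8 tests, was 6.92 ± 0.96% in AVP males and 7.32 ± 0.54% in saline males, and 6.53 ± 0.29% and 6.53 ± 0.98% in the females (exact permutation, adjusted p = 0.972 and 1), where a single separated share could reach no less than 0.229. Cux1-211 held 47.6 to 65.3% of the gene over the libraries.

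Other genes of the layer programme gave the setting of the members, as lists chosen for what is known of them. Of 9 other upper-layer genes, 0 passed the adjusted threshold in males and 2 had an unadjusted p under 0.05, both lower with AVP, beside the 13.5% of all genes, most of them lower, noted above. Nectin3, an adhesion molecule, was at 25.4 ± 3.06 TPM in AVP males (n = 4) and 32.7 ± 2.30 TPM in saline males (n = 4), with a log2 fold change of -0.36 ± 0.10 (adjusted p = 0.304). Ptprk, a receptor phosphatase, was at 59.8 ± 12.4 and 83.7 ± 19.2 TPM (-0.48 ± 0.20, adjusted p = 0.345). The list's median was -0.21 in males and -0.27 in females, beside -0.10 and -0.05 for all genes, and in females none had a p under 0.05. Ptprk there stood at -0.40 ± 0.19 and Mef2c, a MADS box factor of maturing neurons, at -0.34 ± 0.18.

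Of 10 other deep-layer genes, 0 passed in either sex. Tle4, a corepressor of corticothalamic neurons, was at 46.4 ± 2.44 and 53.3 ± 3.98 TPM in AVP and saline males (-0.20 ± 0.07, adjusted p = 0.325), and Ldb2, a LIM cofactor, at 70.7 ± 6.503 and 85.9 ± 13.5 TPM (-0.27 ± 0.12, adjusted p = 0.364). In females Ldb2 was at 65.4 ± 14.9 and 82.7 ± 5.75 TPM (-0.36 ± 0.15), Pcp4, a calmodulin-binding peptide, differed by -0.33 ± 0.16 and Tle4 by -0.02 ± 0.09. Foxp2, a forkhead factor of layer 6, was at 10.03 ± 4.89 and 10.2 ± 1.89 TPM in males and 10.6 ± 3.08 and 11.7 ± 2.21 TPM in females. The list's medians were -0.11 in males and -0.17 in females, beside -0.10 and -0.05 for all genes.

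Subplate genes, of the transient deepest neurons, numbered 8 with 6 tested in males and 5 in females. None passed the adjusted threshold. Lpar1, a lysophosphatidic acid receptor, was at 10.1 to 13.05 TPM in AVP females and 5.38 to 6.99 TPM in saline females, which did not overlap (log2 fold change 0.91 ± 0.17, limma adjusted p = 0.998), the 1 gene of the list under an unadjusted p of 0.05. The female groups did not overlap for 5.55% of all genes. The meningeal and endothelial marker sums given above were separated likewise in unscaled TPM, the endothelial ones no longer after median-of-ratios scaling. Their part in the Lpar1 values was not tested. Nr4a2, an orphan nuclear receptor, was at 56.6 ± 9.11 and 84.7 ± 33.8 TPM in AVP and saline males (-0.52 ± 0.24), and Nxph4 differed by -0.14 in both sexes. Among the 7 tested paralogs of the members, Bcl11a, the relative of Bcl11b, was at 151 ± 8.64 and 174 ± 16.6 TPM in males (-0.19 ± 0.08, adjusted p = 0.342) and Pou3f1 at 21.5 ± 2.60 and 24.8 ± 2.80 TPM (-0.20 ± 0.11). In females Eomes, the T-box factor of intermediate progenitors, differed by 0.54 ± 0.28 and Rora by 0.27 ± 0.24. Of the 10 tested partners, Ski, a transcriptional corepressor, differed by -0.18 ± 0.07 in males (adjusted p = 0.331) and Mta2 by -0.13 ± 0.10. Neurog2, a proneural factor, differed by 0.50 ± 0.21 in females and Nfib by 0.20 ± 0.13, both with an adjusted p of 0.999.

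How members varied together was described over the 15 libraries after subtracting each group's mean, by Pearson's r with no test, since the points share libraries, dissections and a fixed TPM total. The 10 pairs within the upper set had a median r of 0.48 (0.12 to 0.83), and the 6 within the deep set had 0.15 (-0.07 to 0.29). The 20 pairs between the sets had 0.28 (-0.61 to 0.80), so a member of the other set was often as near as one of the same. Pou3f2 and Pou3f3, which share no run of 31 bases, had the highest value of all pairs at 0.83. Pou3f2 and Tbr1 had 0.80, Cux1 and Rorb 0.78, and Rorb and Fezf2 had the lowest at -0.61. With median-of-ratios scaling these 4 values were 0.83, 0.88, 0.87 and -0.56. The medians were then 0.53 (0.23 to 0.87) within the upper set and 0.01 (-0.25 to 0.22) within the deep set. Between the sets the median was 0.27 (-0.56 to 0.88).

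The genes most like each member, among 11597 genes with a mean of at least 5 TPM, were found the same way. They were ranked by r without scaling, and the second value in each bracket is r with median-of-ratios scaling. For Cux1 they were Jade1 (r = 0.91, 0.92), Robo2 (0.90, 0.88) and Pmepa1 (0.89, 0.90). For Cux2 they were Zfhx2 (0.95, 0.81), Plcg1 (0.94, 0.87) and Lpin1 (0.94, 0.85). For Rorb they were Klhl29 (0.92, 0.93), Fhl2 (0.91, 0.91) and Inhba (0.91, 0.92), the last also on the list of upper-layer genes. Pou3f3 was nearest to Tox (0.87, 0.97) and Commd9 (0.83, 0.91), and Pou3f2 to Snord43 (0.85, 0.73) and Gm47296 (0.81, 0.67), with each of these POU genes the third or second nearest of the other. For Tbr1 they were Gm26853 (0.90, 0.94), Edrf1 (0.88, 0.78) and Gm10330 (0.87, 0.81). For Fezf2 they included Rspo3 (0.90, 0.90) and Lhx2 (0.90, 0.90), the latter a factor that patterns the dorsal forebrain. For Bcl11b they were Ptgfrn (0.89, 0.87), Sox8 (0.89, 0.86) and Klhl13 (0.87, 0.87), and for Sox5 they were Acp1 (0.90, 0.87), Exo5 (0.87, 0.80) and Zfp146 (0.86, 0.77).

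The members were also set against lists of markers, by the same measure against the mean log2 level of each list. For the projection neuron markers r ran from -0.31 (Pou3f3) to 0.33 (Sox5). After median-of-ratios scaling it ran from -0.59 (Cux2) to 0.03 (Sox5). Several members varied more closely with markers of other cells. Fezf2, which radial glia express before neurons do, had r = 0.80 with the 9 radial glia markers and 0.81 with the 5 intermediate progenitor markers, whereas Rorb had -0.65 with the radial glia markers. Bcl11b, which striatal neurons and some interneurons express too, had 0.82 with the 10 interneuron markers and 0.71 with the 11 striatal markers. With median-of-ratios scaling these 5 values were 0.80, 0.79, -0.67, 0.76 and 0.76. Cux1 had -0.46 with the radial glia markers and 0.63 with both the interneuron and the striatal markers. After the same scaling its values were -0.76, 0.53 and 0.63. All 9 radial glia, 5 intermediate progenitor, 10 interneuron and 11 striatal markers had a mean of at least 1 TPM. Their sums ran from 1922 to 3174, 85.1 to 165, 501 to 895 and 205 to 446 TPM over the libraries. The part of these cells in the members' levels was not tested.

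**Figure D5:**
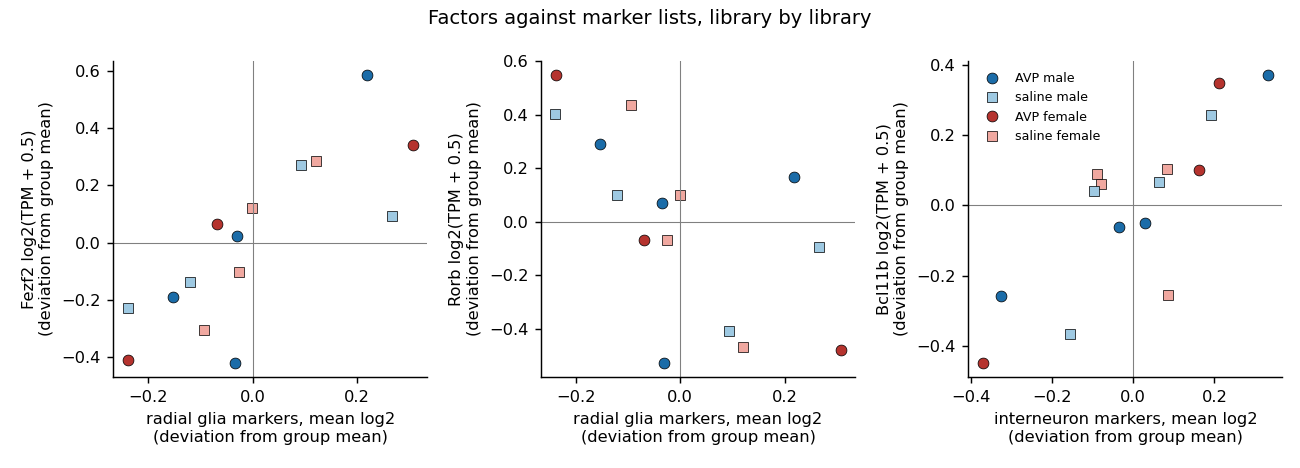
Deviation of Fezf2, Rorb and Bcl11b from their group means (log2 scale) against the deviation of the mean log2 level of radial glia or interneuron markers, 1 point per library, coloured by group as in the plot of levels. Fezf2 and Bcl11b are higher where the markers are higher (r = 0.80 and 0.82, n = 15) and Rorb is lower (r = -0.65).

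Pou3f3 has a neighbour on the opposite strand, the long noncoding RNA Pantr1 (named after its values were seen), which starts 926 bases from the start of Pou3f3. Pantr1 was at 377 ± 59.2 TPM in AVP males (n = 4), 373 ± 44.7 TPM in saline males (n = 4), 377 ± 70.5 TPM in AVP females (n = 3) and 383 ± 32.0 TPM in saline females (n = 4). It thus stood above Pou3f3 in all 15 libraries, since its lowest value was 317 TPM and the highest of Pou3f3 was 91.0 TPM. The exonic sequences of the genes did not overlap. The gene bodies of the members, in GRCm38, are given here for reference. Cux1 lies at chr5:136248135-136567490 and Cux2 at chr5:121856366-122050102, both on the minus strand. Rorb lies at chr19:18930605-19111196, Fezf2 at chr14:12342094-12348189, Bcl11b at chr12:107910403-108003602 and Sox5 at chr6:143828425-144781977, all on the minus strand, and Tbr1 lies at chr2:61802930-61814114 on the plus strand.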

How the data were processed

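Messenger RNA was sequenced from 15 libraries. The deposited values are TPM, which the authors made with Trim Galore 0.4.1, FastQC 0.5.2 and kallisto 0.43.1 on GENCODE M16 transcripts (GRCm38), read by strand, with sleuth 0.29.0 downstream. Each library totals 1000000 TPM, so the depth of a single library is not given by these values. The columns hold the libraries separately, and no library was imputed. Transcript values were summed to genes with GENCODE M21 (GRCm38), and 404 of 133849 transcripts, with 0.154 to 0.199% of TPM, had no gene there.

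A gene entered a comparison if 50% or more of its libraries reached 1 TPM. Values were taken as log2(TPM + 0.5) and fitted by limma 3.58.1 (trend, two-sided, R 4.3.3), with Benjamini-Hochberg adjustment over all of them, at 0.05. The sexes were fitted separately. The interaction, and the sex term with treatment as covariate, used all libraries. Fold changes are on this scale, which understates those of low genes such as Rorb. Single values were compared by exact two-sided permutation (on log2 levels or on shares), whose smallest p is 0.0286. The code was tested on simulated data. Groups and replicate numbers came from the labels.

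Members and lists were chosen with earlier results of these data known. Named are the 9 members, their transcripts with at least 10% of the TPM, the 3 genes most like each, the 2 genes of lowest p in each related list and sex, Foxp2, Tle4 and the sex-linked genes. Some genes under this rule are not reported here. Further names were added after values were seen. DNA-binding signatures were searched in annotated translations. Alternatives were other scalings, pseudocounts, filters, transcript sets, covariates and left-out libraries. Figures were drawn with matplotlib 3.10.9 in Python 3.11.15.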

Additional observations from a re-analysis of the deposited data

Results flagged for a closer look

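In 33 groups of 4 libraries, 3 members had a library whose gap to its nearest neighbour exceeded Dixon's critical value, where chance gives about 1 group in 20. Pou3f2 stood at 33.4 TPM in saline female 6, below the 42.5 to 43.5 TPM of the other saline females. Bcl11b stood at 33.7 TPM in saline female 15, where the others were at 42.1 to 43.4 TPM. Sox5 stood at 57.1 TPM in saline male 5, above the 55.0 to 55.2 TPM of the other saline males, a small distance in a group that lay close together.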

How the results depend on the processing

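No member passed the adjusted threshold under any alternative, and the lowest adjusted p of a member in any of them was 0.149. The count of genes past it in males, 1, was 0 with a pseudocount of 1, with 5 TPM required in every library (which left Rorb out), with the run of library numbers as covariate, with protein-coding transcripts and with 1 fit of all 15 libraries, and 2 without the trend. Leaving out 1 library gave 0 to 6 genes in males, 0 to 6 in females, 0 to 1 for the interaction and 0 to 7 for sex. Of 18 log2 fold changes of members, 9 kept their sign throughout. In males, median-of-ratios scaling gave 0.011 for Pou3f3 and 0.11 for Tbr1, and Tbr1 was 0.075 with quantile normalization, 0.069 on protein-coding and 0.070 on DNA-binding transcripts. In females, Pou3f3 was 0.0083 with median-of-ratios scaling. Quantile normalization gave 0.029 for Pou3f2, 0.045 for Pou3f3 and 0.015 for Sox5, which was 0.043 on protein-coding and 0.041 on DNA-binding transcripts. The cause was not tested. Leaving out 1 library gave -0.084 to 0.074 for Tbr1 in males. In females it gave -0.21 to 0.025 for Cux1, -0.12 to 0.022 for Pou3f2, -0.069 to 0.018 for Pou3f3, -0.024 to 0.053 for Tbr1, -0.044 to 0.33 for Fezf2, -0.33 to 0.071 for Bcl11b and -0.19 to 0.033 for Sox5. Shares of transcripts, in percentage points, then ran in females from -4.89 to 1.14 for Bcl11b-201, -1.64 to 1.58 for Cux1-211, -4.41 to 3.52 for Cux2-211, -0.494 to 4.74 for Fezf2-201 and -2.61 to 2.54 for Tbr1-201, which was 0.146 among protein-coding transcripts. In males they ran from -4.06 to 0.344 for Bcl11b-201, -5.75 to 0.176 for Cux1-211, -1.38 to 3.12 for Cux2-211 and -3.81 to 10.5 for Rorb-201. The DNA-binding alternative was chosen after seeing the data. No paired analysis was possible because the groups share no replicate numbers.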

Other observations

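The markers of other tissue set the material in which the layer factors were measured. Over the 15 libraries the summed markers ran from 152 to 241 TPM for thalamus, 22.0 to 69.8 TPM for hippocampus, 67.4 to 131 TPM for Cajal-Retzius cells, 60.3 to 246 TPM for meningeal fibroblasts, 80.7 to 166 TPM for endothelium and 20.01 to 51.9 TPM for microglia. The 6 projection neuron markers summed to 928 to 1169 TPM.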
